A study of Mus musculus with 7 samples.

Results

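Microglia and the macrophages at the borders of the brain were followed here through 35 genes, taken by symbol from the deposited table of the series. All 35 were found among the 49164 genes with counts, and all 35 passed the filter on low counts, which 20420 genes passed. They divide by role into 10 genes of homeostatic microglia, 3 genes for a growth factor receptor and transcription factors, the 3 genes of complement C1q, 9 signalling adaptors and immune receptors, 6 lysosomal, phagocytic and effector genes, and 4 genes of border macrophages.

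Microglia are the resident macrophages of brain tissue. They arise from yolk sac precursors, depend on the receptor CSF1R for survival and on the transcription factors PU.1 and IRF8 for their identity, and survey their surroundings through purine and fractalkine receptors. Border macrophages line the meninges, the vessels and the choroid plexus and are set apart from microglia by the mannose receptor and by scavenger receptors. In the newborn rat amygdala, microglia have been described to differ in phagocytosis between the sexes.

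The tissue was medial amygdala, a region involved in social and reproductive behaviour, from 4 male and 3 female Trap-Ai9 mice killed at an age of 2 months. The genotype, written TRAP2-Ai9 in the design text, joins a tamoxifen-dependent Cre driven from the Fos locus, which is active after neuronal activity, to a red fluorescent reporter. All mice had received oral tamoxifen, the males on postnatal day 24 and the females at 6 weeks per the protocol labels, so the effect of sex and that of age at tamoxifen cannot be told apart. The design text names postnatal day 24 without setting the females apart. Slices were inspected under a fluorescent stereoscope and an area the labels call the DIMPLE, a name they do not spell out, was dissected from both hemispheres. It made up 40%, 18%, 32% and 29% of the dissected tissue of males 1 to 4 and 25%, 20% and 20% of that of females 1 to 3. The comparison asks whether the medial amygdala differs between males and females.

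The libraries held 29049604 to 46494588 counts. The Y-linked Ddx3y had 3422 to 4346 counts in the males and 4 to 7 in the females, and Xist had 1 to 13 counts in the males and 971 to 3796 in the females, as labelled. Male 3 stood apart, with a summed level of the 4 choroid plexus markers of 14587 CPM (counts scaled to a common library size) against 26.9 to 296 CPM in the other 6 libraries, and an oligodendrocyte marker sum of 8998 CPM against 1489 to 3875 CPM. The summed level of 8 neuron markers, of which 0 passed the test, was 3428 to 4339 CPM in males against 2876 to 4072 CPM in females. Among them Slc17a7, a glutamate transporter of excitatory neurons, had 145 to 793 CPM in males against 48.8 to 88.7 CPM in females. Its adjusted p was 0.327 in edgeR's test. Slc17a6, another glutamate transporter of excitatory neurons, averaged 32.3 ± 11.9 CPM for males and 41.2 ± 19.7 CPM for females. Slc32a1, the transporter of inhibitory neurons, had 45.9 to 101 CPM in males against 87.4 to 119 CPM in females. Estimates were higher in males for 2 of the 8 markers and lower for 6. The part of these neurons in the values of genes that neurons also express, such as Cx3cl1, Cd200, Mef2c and Maf, was not tested. The labels do not say whether the mice were littermates or were processed together. Since this is RNA from whole tissue pieces, fewer cells of a type and less RNA per cell cannot be told apart in any value that follows.

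Levels are given as CPM after scaling by the trimmed mean of M values (TMM), in the order male 1 to 4 and female 1 to 3, and fold changes are male over female. No member differed between males and females past an adjusted p of 0.05 in edgeR's quasi-likelihood test, 0 of 35, where 0.0245% of all 20420 genes tested did. At an unadjusted p under 0.05 the count was also 0 of 35, where 4.71% of all genes tested stood, 2.68% being higher in males. DESeq2 also called 0 of 35, beside 0.306% of the genes it tested. The adjusted p was 1.00 for every member, in edgeR's fit as in the authors' deposited table, where the fold change runs the other way, female over male. The lowest p of a member in the authors' deposited table was 0.0946, for Fcrls.

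The intervals show which differences these libraries leave room for. The 95% interval of the fold change lay within 2-fold either way for 29 of 35 members, where 57.5% of all genes tested had such an interval, and within 1.5-fold for 12 of 35. It reached beyond 2-fold for 6 members. Estimated log2 fold changes ran from -0.25 for Cd68 to 0.64 for Mrc1, with a median of 0.11 over the members and 0.01 over all genes tested. The estimate was higher in males for 26 of 35 members, beside 52.3% of all genes tested, and for 22 of 35 when libraries were scaled by their totals alone. That split moved with single libraries: it was 18 of 35 without female 1, 21 of 35 without male 3 and 27 of 35 without male 1. The count columns of males 1 and 2 are named mv and those of males 3 and 4 mb, which the labels do not explain. Against the same 3 females, the member median was -0.04 with the mv males alone, 15 of 35 estimates being higher, and 0.16 with the mb males alone, 27 of 35 being higher, with 0 called in either.

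As a module, the members had a mean level of 27.0, 27.3, 30.4 and 32.5 CPM in the males and of 24.9, 29.9 and 28.7 CPM in the females. The groups overlapped, with averages of 29.3 ± 2.61 CPM in males (SD, n = 4), against 27.8 ± 2.60 CPM in females (SD, n = 3). Male 4 had the highest module level, and 29 of 35 members lay above their own mean there. Female 1 had the lowest, with 8 of 35 above. The median SD of a member over the 7 libraries was 0.34 on the log2 CPM scale, beside 0.37 over all genes tested.

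**Figure D1:**
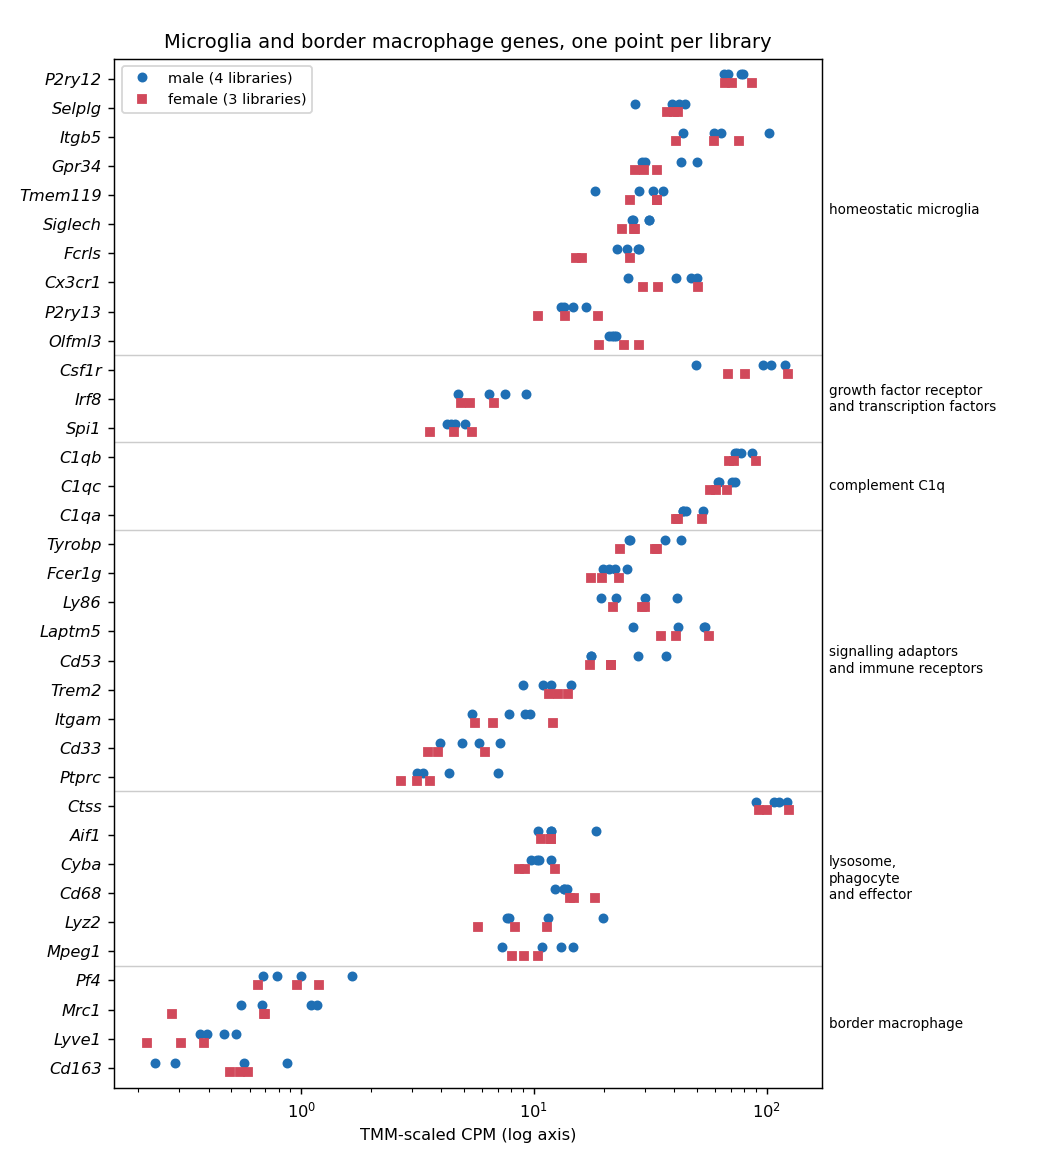
TMM-scaled CPM of each of the 35 genes in every library, on a log axis, grouped by role, with males as circles (4 libraries) and females as squares (3 libraries). The groups overlap for 34 genes; Cd68 is the exception, with 12.3 to 13.9 CPM in males and 14.3 to 18.3 CPM in females, and the 4 border macrophage genes lie below 2 CPM.

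The 10 homeostatic genes mark microglia at rest. Estimates were higher in males for 6 of them and lower for 4, with a median log2 fold change of 0.07, and none passed the test. P2ry12, the ADP receptor that guides microglial processes (chromosome 3, 59123693 to 59170292, GRCm39), had 77.3, 68.5, 65.9 and 79.02 CPM in males, against 71.1, 86.8 and 66.0 CPM in females. The groups overlapped, with males 1 and 4 above females 1 and 3 and below female 2. The log2 fold change was -0.04 ± 0.16 (SE), with a 95% interval of the fold from 0.759 to 1.25.

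Cx3cr1, the receptor for neuronal fractalkine (chromosome 9, 119730682 to 119898945), had 25.5, 40.7, 50.4 and 47.5 CPM in males, against 29.3, 50.6 and 34.0 CPM in females. The groups overlapped, and the spread within each was larger than the distance between the means, 41.0 ± 11.1 CPM in males (SD, n = 4) against 38.0 ± 11.2 CPM in females (SD, n = 3). The log2 fold change was 0.11 ± 0.27. The gene's span in the table also holds parts of 9 other genes, among them Wdr48 and Gorasp1, with 14800 and 10671 counts over the 7 libraries beside 11101 for Cx3cr1.

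Tmem119, a membrane protein used as a microglial marker, had 18.3, 28.2, 32.6 and 36.0 CPM in males, against 25.9, 33.6 and 33.8 CPM in females. Male 1 was low and the other 6 libraries lay between 25.9 and 36.0 CPM (log2 fold change -0.11 ± 0.23). Fcrls, an Fc receptor-like protein of mouse microglia, had 22.7, 28.1, 25.1 and 28.4 CPM in males, against 15.2, 25.9 and 16.1 CPM in females. Females 1 and 3 lay below every male, and female 2 lay among them. With a log2 fold change of 0.45 ± 0.22 it had the lowest p of the members in edgeR's quasi-likelihood test (adjusted p = 1.00), and its fold interval ran from 0.975 to 1.92.

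Gpr34, a lysophosphatidylserine receptor encoded on the X chromosome, had 50.3, 29.9, 29.1 and 42.7 CPM in males, against 27.2, 29.7 and 34.0 CPM in females. Males 1 and 4 were above all females, and males 2 and 3 were among them (log2 fold change 0.33 ± 0.22). Gpr34 overlaps Cask on the opposite strand, and P2ry12 and P2ry13 overlap Med12l. The strand setting of the counting is not given in the sources used here, so reads of such pairs cannot be told apart.

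Olfml3, a secreted olfactomedin-like protein, had 21.0, 22.1, 22.6 and 21.6 CPM in males, against 19.1, 28.3 and 24.4 CPM in females. All males lay between the lowest and the highest female, and the spread (SD) was 0.684 CPM for males and 4.61 CPM for females. Selplg, the P-selectin ligand, had 27.3, 42.0, 39.2 and 44.4 CPM in males, against 40.0, 41.6 and 37.2 CPM in females, with male 1 low. The log2 fold changes were -0.13 ± 0.17 for Olfml3 and -0.05 ± 0.19 for Selplg. Siglech, a sialic acid-binding lectin, had 26.4 to 31.4 CPM in males, against 23.9 to 27.1 CPM in females. P2ry13, another ADP receptor, averaged 14.5 ± 1.65 CPM for males and 14.3 ± 4.30 CPM for females. The integrin subunit gene Itgb5 was highest in male 3 at 103 CPM, with 43.8 to 63.4 CPM in the other males and 40.6 to 76.0 CPM in females.

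Csf1r, the receptor for CSF1 and IL-34, had 49.6, 96.3, 119 and 105 CPM in males, against 68.4, 124 and 80.9 CPM in females. Its level varied 2.49-fold between libraries, male 1 being lowest and female 2 highest, while the group means were 92.6 ± 30.2 CPM in males (SD, n = 4) against 91.0 ± 28.9 CPM in females (SD, n = 3). The fold interval, 0.636 to 1.63, leaves room for a difference in either direction. Csf1r overlaps Hmgxb3 on the opposite strand.

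Spi1, which encodes PU.1, had 4.42, 4.23, 5.06 and 4.57 CPM in males, against 3.57, 5.42 and 4.54 CPM in females. The males lay within the range of the females, with a log2 fold change of 0.02 ± 0.25. Irf8, which encodes a partner of PU.1, had 4.74, 7.51, 9.21 and 6.42 CPM in males, against 5.33, 6.72 and 4.86 CPM in females. Male 1 was the lowest library and males 2 and 3 the highest ones (log2 fold change 0.31 ± 0.28, fold interval 0.808 to 1.90).

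The ligands and other survival signals, from a list of 13 further genes, showed 0 called and 1 at an unadjusted p under 0.05. Of all genes tested 4.71% stood there, and the median log2 fold change of the list was 0.26. Il34, the CSF1R ligand made largely by neurons, averaged 38.8 ± 5.63 CPM for males and 36.2 ± 4.77 CPM for females, and Csf1 averaged 24.2 ± 5.71 CPM for males and 24.9 ± 5.92 CPM for females. The genes of lowest p were Tgfb2, Mef2c and Tgfbr2. Tgfb2, a transforming growth factor, had 22.9, 26.3, 56.4 and 22.9 CPM in males, against 18.4, 23.0 and 16.4 CPM in females, and stood highest in male 3, the library rich in choroid plexus markers, whose part in this was not tested. Among 7 genes of signalling between neurons and microglia, both ligands and receptors such as Cd200r1 and Sirpa, 0 were called. Cx3cl1, which encodes fractalkine, averaged 444 ± 82.4 CPM for males and 516 ± 99.1 CPM for females, and Cd200 averaged 310 ± 36.7 CPM for males and 386 ± 39.1 CPM for females.

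The 3 chains of C1q, the recognition molecule that starts the classical complement cascade and is made in brain by microglia, are encoded next to each other on chromosome 4, between 136607440 and 136626114 on the minus strand. C1qa had 43.8, 43.9, 45.1 and 53.5 CPM in males, against 41.7, 40.7 and 52.6 CPM in females. C1qb had 72.9, 74.3, 77.2 and 86.4 CPM in males, against 68.7, 72.6 and 89.7 CPM in females. C1qc had 71.0, 61.9, 62.5 and 72.9 CPM in males, against 60.9, 56.9 and 67.3 CPM in females.

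Male 4 and female 3 were the 2 highest libraries for C1qa and C1qb, and the groups overlapped for all 3 chains. Log2 fold changes were 0.05 ± 0.16 for C1qa, 0.01 ± 0.16 for C1qb and 0.12 ± 0.15 for C1qc, and the 3 fold intervals together spanned 0.789 to 1.37. Per kilobase of transcript, C1qb stood at 1.60 ± 0.0400 times C1qa in males (SD, n = 4) and at 1.64 ± 0.0656 times in females (SD, n = 3), with a range of 1.54 to 1.70 over the 7 libraries. C1qc stood at 1.25 ± 0.104 times C1qa in males and at 1.19 ± 0.0788 times in females, with a range of 1.11 to 1.402. The proportion of C1qb to C1qa thus varied less between libraries than that of C1qc to C1qa.

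The promoters of C1qb and C1qc are shown because they are neighbours. The deviations of Cd53 and Cx3cr1 from their own means had opposite signs in males 1, 2 and 3 and in female 2. Their promoters follow, as a pair picked after these values were seen. Each is the 250 bases before the start site, from RefSeq on GRCm38.p6, on the gene's own strand, with capitals marking GAGGAA or its reverse complement TTCCTC, the core recognised by PU.1.
C1qb, chr4:136886201-136886450, minus strand: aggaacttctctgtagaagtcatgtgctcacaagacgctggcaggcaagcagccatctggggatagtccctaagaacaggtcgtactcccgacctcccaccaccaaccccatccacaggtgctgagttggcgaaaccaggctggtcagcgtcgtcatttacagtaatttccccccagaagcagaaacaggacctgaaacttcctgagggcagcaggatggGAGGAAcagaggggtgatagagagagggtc
C1qc, chr4:136892915-136893164, minus strand: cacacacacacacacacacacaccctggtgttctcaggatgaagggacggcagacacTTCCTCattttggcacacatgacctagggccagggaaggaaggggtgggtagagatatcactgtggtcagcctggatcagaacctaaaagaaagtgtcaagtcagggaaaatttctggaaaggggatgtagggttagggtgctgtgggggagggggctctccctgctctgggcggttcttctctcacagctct
Cd53, chr3:106790150-106790399, minus strand: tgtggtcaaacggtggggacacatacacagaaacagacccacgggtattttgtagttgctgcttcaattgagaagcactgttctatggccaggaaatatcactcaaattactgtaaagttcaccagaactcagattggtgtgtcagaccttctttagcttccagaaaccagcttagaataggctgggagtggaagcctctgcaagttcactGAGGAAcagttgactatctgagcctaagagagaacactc
Cx3cr1, chr9:120068297-120068546, minus strand: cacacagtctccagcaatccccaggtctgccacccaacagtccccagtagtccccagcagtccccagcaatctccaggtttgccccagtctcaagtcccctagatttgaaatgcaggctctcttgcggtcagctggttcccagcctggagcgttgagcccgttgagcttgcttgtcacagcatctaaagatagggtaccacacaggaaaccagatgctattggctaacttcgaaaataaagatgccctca
Counted from the start site, the match begins at -30 in C1qb, at -193 in C1qc and at -39 in Cd53, and the Cx3cr1 window holds none. Other members with the motif differed in their deviations. Those of Itgam had the same sign as those of Cx3cr1 in every library, and those of Ctss did not. Whether the motif bears on the deviations was not tested. The RefSeq table gave 29 promoters for 27 members. Of these 29 promoters 15 held GAGGAA on either strand, and 23.3% of all 32851 promoters of the same length did. The longer GAGGAAGT, which contains the shorter motif, was in 2 of the 29, those of C1qc and Pf4, and in 2.44% of all promoters. A match describes the letters of the window, not a bound site.

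Downstream of C1q, a list of 11 further complement genes had 0 called. At an unadjusted p under 0.05 there were 2, beside 4.71% of all genes tested, and the median log2 fold change was 0.43. The summed level of the list was 233 CPM in male 3, against 60.5 to 102 CPM in the other libraries. C3ar1, the receptor for C3a on microglia, had 2.12, 2.57, 3.93 and 3.27 CPM in males, against 1.17, 2.01 and 1.55 CPM in females. Every male lay above every female, as in 2.54% of all genes tested. Its log2 fold change of 0.92 ± 0.34 was among those at an unadjusted p under 0.05 and had an adjusted p of 0.874 in edgeR's test over all genes. The second, C1s1, a protease of the C1 complex, averaged 0.606 ± 0.578 CPM for males and 0.131 ± 0.0526 CPM for females, with 1.41 CPM in male 3, the library rich in choroid plexus markers, whose part in this was not tested. The gene of next lowest p, C2, had 0.867 ± 0.203 CPM for males and 1.50 ± 0.810 CPM for females.

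Among the 9 adaptors and immune receptors, estimates were higher in males for 6 and lower for 3, with a median log2 fold change of 0.12. Trem2, a lipid receptor whose variants are linked to Alzheimer's disease in humans, had 8.98, 11.9, 10.9 and 14.4 CPM in males, against 12.6, 11.6 and 13.98 CPM in females. Males 1 and 3 lay below every female and male 4 above every female, with a log2 fold change of -0.14 ± 0.21. Its signalling partner Tyrobp had 42.9, 25.7, 25.9 and 36.6 CPM in males, against 33.9, 23.5 and 33.2 CPM in females, highest in male 1, where Trem2 was lowest.

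Ptprc, the pan-leukocyte phosphatase CD45, had 3.34, 3.15, 4.30 and 7.01 CPM in males, against 3.15, 3.59 and 2.67 CPM in females. Males 3 and 4 lay above the females, male 4 by most, and the log2 fold change was 0.51 ± 0.33, with a fold interval of 0.847 to 2.38. Male 4 also had the highest sum over 16 blood leukocyte genes, at 3.89 CPM against 1.36 to 2.05 CPM in the other males and 0.650 to 2.00 CPM in females. None of the 16 was at 0 in every library, only Ccr2 and Cd3e passed the filter, with 39 and 26 counts in male 4, and 0 were called. The part of blood leukocytes in the level of Ptprc was not tested; without male 4 its log2 fold change was 0.20.

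Cd53, a tetraspanin of leukocytes and microglia, had 37.1, 17.7, 17.5 and 27.99 CPM in males, against 21.5, 17.4 and 21.4 CPM in females, with males 1 and 4 above the females. Of the other members in this class, Itgam encodes the complement receptor subunit CD11b, Cd33 a sialic acid-binding inhibitory receptor, Fcer1g an adaptor of Fc receptors, Ly86 a partner of the receptor RP105 and Laptm5 a lysosomal membrane protein. Their log2 fold changes ran from -0.02 ± 0.32 for Itgam to 0.28 ± 0.30 for Cd33. Laptm5 averaged 44.1 ± 13.04 CPM for males and 44.2 ± 11.2 CPM for females.

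**Figure D2:**
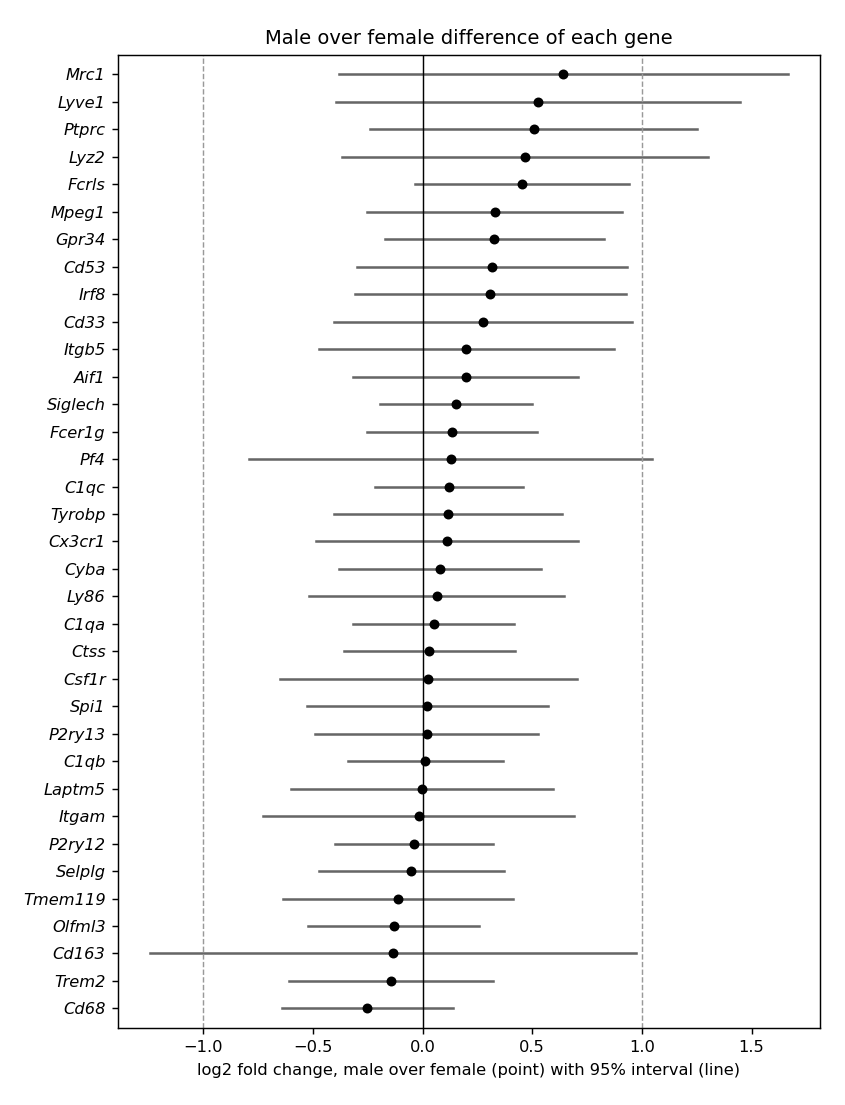
Log2 fold change, male over female, of each of the 35 genes with its 95% interval from edgeR's fit. Every interval includes 0, the widest belong to the border macrophage genes Cd163, Mrc1, Lyve1 and Pf4, and Fcrls comes closest to excluding 0 at -0.04 to 0.94.

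The 6 lysosomal, phagocytic and effector genes had a median log2 fold change of 0.14, with 5 estimates higher in males and 1 lower. The lower estimate was that of Cd68, an endosomal and lysosomal glycoprotein read as a sign of phagocytic activity. Cd68 had 13.9, 13.5, 12.3 and 13.4 CPM in males, against 14.8, 18.3 and 14.3 CPM in females. All 4 males lay below all 3 females, the only member of 35 whose groups did not overlap, where 5.32% of all genes tested had groups apart in either direction and 2.78% in that direction. Its log2 fold change of -0.25 ± 0.17 did not pass edgeR's test (adjusted p = 1.00), and the fold interval ran from 0.641 to 1.10.

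Lyz2, a lysozyme of myeloid cells, had 7.79, 7.69, 11.5 and 19.8 CPM in males, against 8.28, 5.76 and 11.4 CPM in females. As for Ptprc, male 4 stood highest, and its log2 fold change was 0.47 ± 0.37, or 0.09 without male 4. Its reads may be shared with its near-identical copy Lyz1. Mpeg1, a pore-forming protein of macrophages, had 7.32, 10.9, 13.1 and 14.8 CPM in males, against 8.07, 10.4 and 9.06 CPM in females, with males 2 to 4 above the females and male 1 below them. Ctss, a lysosomal protease, averaged 108 ± 13.9 CPM for males and 106 ± 17.0 CPM for females. Aif1, which encodes the marker IBA1, averaged 13.1 ± 3.58 CPM for males and 11.5 ± 0.625 CPM for females. Cyba, a subunit of the phagocyte oxidase, averaged 10.6 ± 0.889 CPM for males and 10.04 ± 2.00 CPM for females.

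The 4 border macrophage genes were rare in these pieces. Mrc1, the mannose receptor, had 0.682, 0.551, 1.17 and 1.11 CPM in males, against 0.696, 0.279 and 0.700 CPM in females, from 19 to 54 counts in males and 9 to 33 in females. Males 3 and 4 lay above the females and males 1 and 2 among them. The log2 fold change was 0.64 ± 0.46, and the fold interval of 0.768 to 3.17 leaves both no difference and a 3-fold one within reach.

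Lyve1, a hyaluronan receptor, had 0.395, 0.525, 0.369 and 0.467 CPM in males, against 0.304, 0.217 and 0.382 CPM in females, from 7 to 20 counts a library. The lowest male lay just below the highest female, with a log2 fold change of 0.53 ± 0.41 and a fold interval of 0.761 to 2.73. Cd163, the haemoglobin scavenger receptor, had 0.287, 0.236, 0.869 and 0.566 CPM in males, against 0.544, 0.495 and 0.594 CPM in females. Both the lowest and the highest library were males. Pf4, a chemokine shared by platelets and border macrophages, averaged 1.03 ± 0.435 CPM for males and 0.932 ± 0.270 CPM for females.

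Together these 4 genes made up 0.276 ± 0.0537% of the summed member CPM in males (SD, n = 4) and 0.243 ± 0.0746% in females (SD, n = 3). Mrc1 and Cd163, and among the microglial members Itgb5, Irf8 and Cd33, had their highest value in male 3, the library with 14587 CPM of choroid plexus markers; the part of choroid plexus tissue in these values was not tested. Without male 3 the log2 fold change of Cd163 was -0.58 and that of Mrc1 was 0.46, against -0.13 and 0.64 with all libraries. That of Itgb5 was -0.09 without male 3 and 0.20 with all libraries, that of Irf8 was 0.14 and 0.31, and that of Cd33 was 0.11 and 0.28.

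Levels per kilobase of transcript compare different genes only roughly, since the length used is that of the longest protein-coding transcript. On this scale the mean over the 7 libraries was highest for Ctss at 79.2 CPM per kb and C1qb at 71.1 CPM per kb. C1qc at 53.8, Tyrobp at 53.1 and C1qa at 44.1 CPM per kb came next. P2ry12 stood at 31.4, Csf1r at 19.5, Cx3cr1 at 8.84 and Spi1 at 2.23 CPM per kb. Pf4 stood at 1.68, Cd33 at 0.882 and Ptprc at 0.766 CPM per kb. The other border macrophage genes closed the order, Mrc1 at 0.138, Lyve1 at 0.131 and Cd163 at 0.115 CPM per kb. At least 100 counts in every library were reached by 30 of 35 members, and the exceptions were the border macrophage genes and Ptprc.

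The members did not vary between libraries as a block. Csf1r and Cd53, a pair picked after their values were seen, stood in a CPM ratio of 1.34, 5.45, 6.81 and 3.75 in males, against 3.18, 7.10 and 3.78 in females. The ratio was lowest in male 1, where Csf1r was lowest and Cd53 highest. The ratio of P2ry12 to Cx3cr1, 2 receptors of the same cells, was 3.03, 1.69, 1.31 and 1.66 in males, against 2.43, 1.72 and 1.94 in females, and it was highest in male 1.

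These deviations moved in part with transcript length. Over the 35 members the correlation between log2 transcript length and a gene's deviation from its own mean was -0.59, 0.15, 0.66 and 0.30 in males and -0.46, 0.35 and -0.54 in females. The members share each library and differ in GC content, so these are descriptions. With GC content the members' correlations were -0.35, 0.18, 0.06 and -0.29 in males and 0.01, 0.21 and 0.35 in females. Over 20347 other genes tested the correlations with length were -0.34, 0.05, 0.23 and 0.02 in males and -0.15, 0.35 and -0.26 in females. They had the same sign as those of the members in every library. With the median instead of the longest transcript length, the members gave -0.37, 0.01, 0.53 and 0.37 in males and -0.31, 0.10 and -0.39 in females.

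The 17 members with transcripts longer than 2242 bases averaged a log2 deviation of -0.292, -0.001, 0.328 and 0.270 in males and of -0.27, 0.11 and -0.15 in females. The 18 shorter members averaged 0.12, -0.14, -0.07 and 0.20 in males and -0.08, -0.15 and 0.12 in females. Male 1 and female 3 thus had long members low and short members high, male 3 and female 2 the reverse, and male 4 had both high. Both kinds of library occurred in both sexes. With a length trend per library taken out, a step chosen after the values were seen, the median member log2 fold change was 0.05, 20 of 35 estimates were higher in males and 0 were called. Taking out the trend of the other genes tested lowered the SD over the 7 libraries for 19 of 35 members. The median SD of a member went from 0.34 to 0.31. What lies behind the length pattern was not tested.

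**Figure D3:**
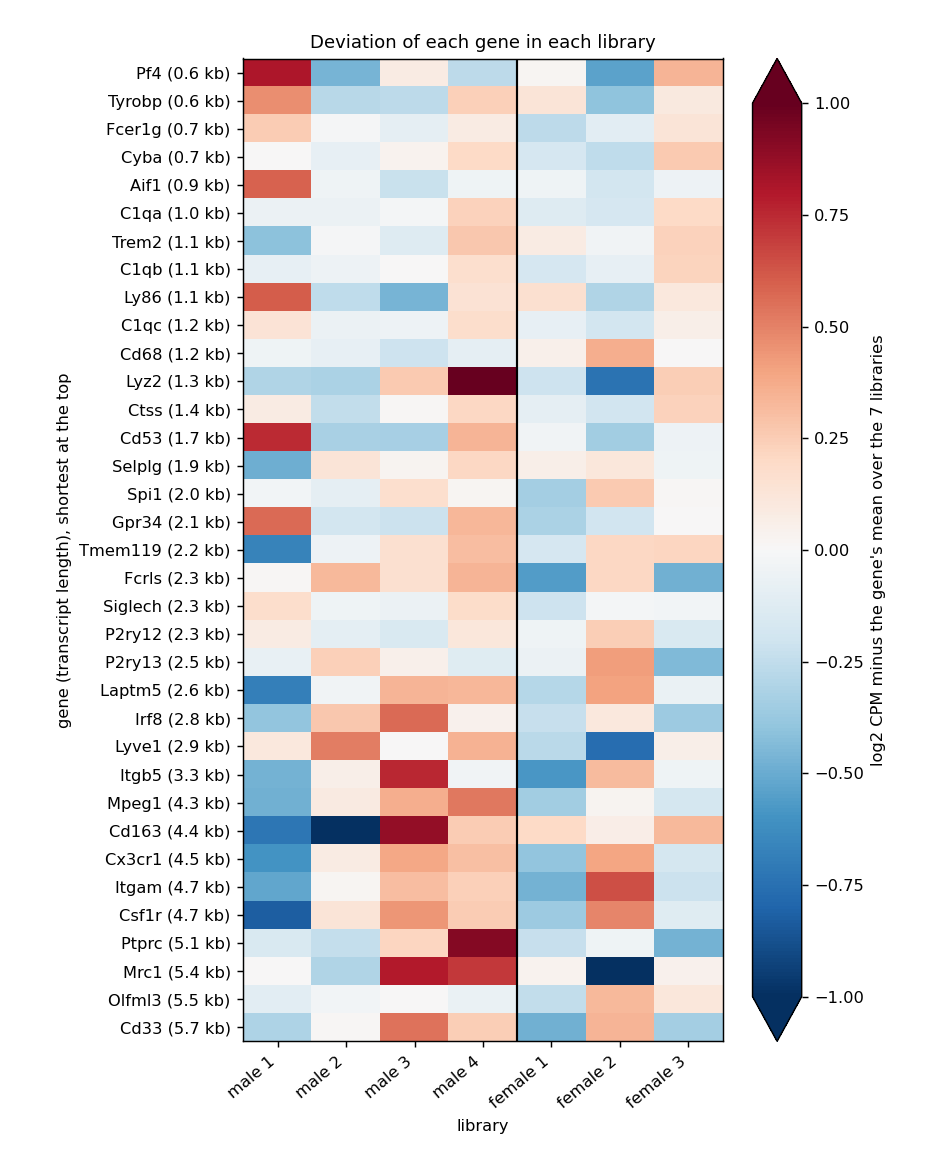
Deviation of each gene's log2 CPM from its own mean over the 7 libraries, males left of the line and females right of it, with genes ordered from the shortest transcript at the top to the longest at the bottom. In male 1 the colours turn from high at the top to low at the bottom, in male 3 from low or near 0 to high, and male 4 is high for 29 of 35 genes.

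**Figure D4:**
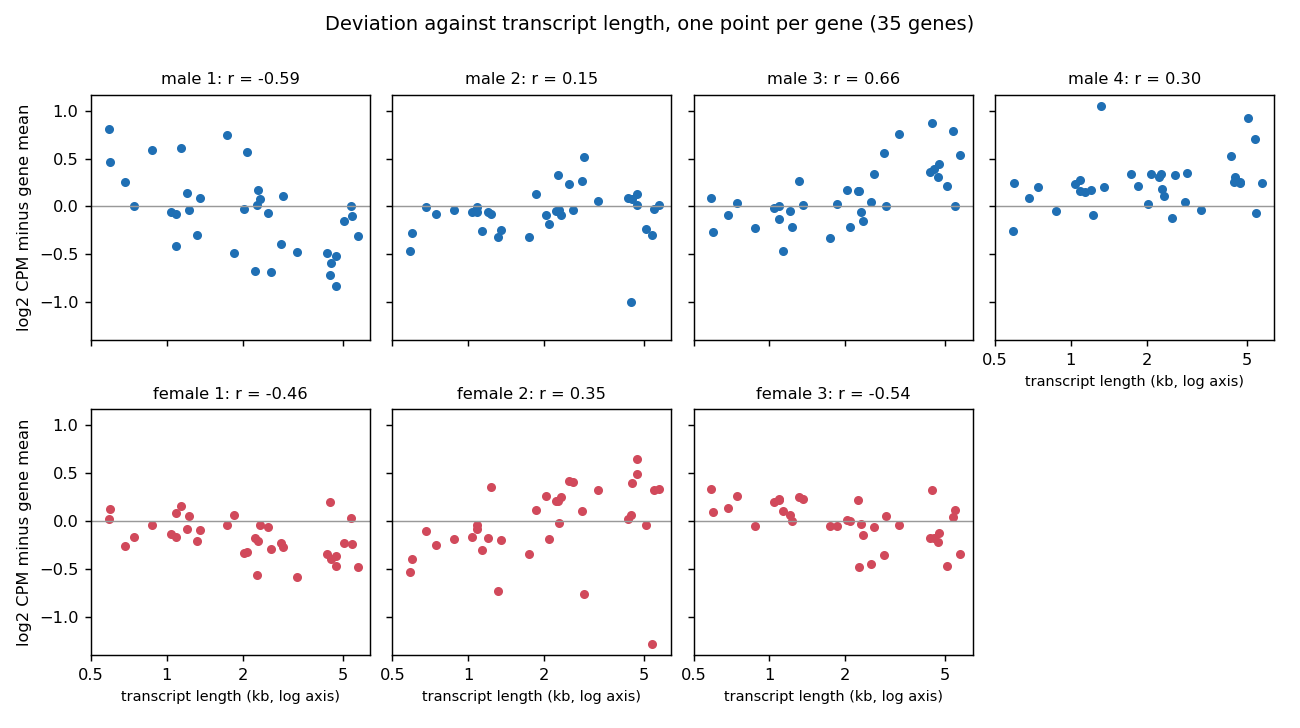
Deviation of each gene's log2 CPM against log2 transcript length in each library, one panel a library with the 4 males before the 3 females. The correlation over the 35 genes runs from -0.59 in male 1 to 0.66 in male 3, and both signs occur in each sex.

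The labels give the share of DIMPLE in each piece, which allows a slope to be fitted with sex in the model. No member passed an adjusted p of 0.05 for the slope, 0 of 35, where 0% of all genes tested did. At an unadjusted p under 0.05 there was 1 of 35, Cd53, beside 4.54% of all genes tested. Cd53 had a slope of 0.42 ± 0.18 log2 units per 10 percentage points (adjusted p = 0.897 in edgeR's test), and of 0.21 without male 1, the piece with 40%. The next members of positive slope were Ly86 at 0.35 ± 0.18 and Pf4 at 0.54 ± 0.29, and those of negative slope Selplg at -0.24 ± 0.15, Csf1r at -0.41 ± 0.26 and Tmem119 at -0.28 ± 0.20. Without male 1 the slope of Csf1r was 0.03, and that of Ly86 was 0.08. Slopes were positive for 15 members and negative for 20, beside 51.6% positive over all genes tested, with a median of -0.02 beside 0.01 over all genes tested.

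The 9 further lists were chosen with earlier results of these data known. They hold genes of these cells, but also neuronal ligands, blood leukocyte genes and genes that other cells express. They gave 0 calls among 109 genes tested, and 10 at an unadjusted p under 0.05, beside 4.71% of all genes tested. The 24 further microglia genes had a median log2 fold change of -0.01, 11 higher and 13 lower, and 1 at an unadjusted p under 0.05. That was Sparc, a matrix protein made by microglia and other glia, at 771 ± 147 CPM for males and 1097 ± 182 CPM for females, followed by Plcg2, a phospholipase of immune signalling, and Ltc4s, the leukotriene synthase. Sall1, a transcription factor of microglia, had a log2 fold change of 0.03.

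Of 14 further border macrophage genes 9 passed the filter and 0 were called, beside 0.0245% of all genes tested. An unadjusted p under 0.05 was reached by 2, beside 4.71% of all. The median log2 fold change was 0.62. The summed level of all 14 overlapped, at 51.0 to 88.2 CPM in males against 46.6 to 55.6 CPM in females. Levels were low for some, such as Ms4a7 at 0.415 CPM for males and 0.264 CPM for females. Dab2 was highest in male 3, rich in choroid plexus markers, at 41.0 CPM against 8.58 to 14.96 CPM elsewhere. Maf, a transcription factor of resident macrophages that neurons also express, had 19.6, 13.04, 18.8 and 18.1 CPM in males, against 11.6, 8.20 and 10.4 CPM in females. Every male lay above every female, as in 2.54% of all genes tested, with a log2 fold change of 0.79 ± 0.22 and an adjusted p of 0.647 in edgeR's test over all genes. Mgl2, a galactose-type lectin, averaged 0.454 ± 0.374 CPM for males and 0.103 ± 0.0633 CPM for females, and F13a1, a coagulation factor subunit made by these macrophages, averaged 1.89 ± 0.534 CPM for males and 1.19 ± 0.239 CPM for females.

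Of the genes that microglia express around plaques and in disease, 17 of 18 passed the filter and 0 were called, also 0 at an unadjusted p under 0.05, with a median log2 fold change of 0.18. The genes of lowest p were Clec7a, Fth1 and Cd63. Clec7a, the beta-glucan receptor, averaged 0.569 ± 0.155 CPM for males and 0.280 ± 0.188 CPM for females. Fth1 was highest in male 3, at 3822 CPM against 2136 to 3164 CPM elsewhere. Cd63 was also highest there, at 387 CPM against 153 to 229 CPM elsewhere. The part of cells other than microglia in these values was not tested. Of 14 interferon response genes 0 were called and 3 had an unadjusted p under 0.05, beside 4.71% of all genes tested, with a median of -0.18. These were Ifit3, at 13.6 ± 0.848 CPM for males and 19.9 ± 5.25 CPM for females, Ifi27l2a, at 4.47 ± 5.27 CPM (12.3 CPM in male 3) for males and 1.05 ± 0.513 CPM for females, and Mx1, at 1.37 ± 0.928 CPM for males and 0.312 ± 0.354 CPM for females.

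Cytokine and immediate response genes, a class known to respond to the handling of fresh tissue, passed the filter for 12 of 16. Of these 0 were called, and 1 had an unadjusted p under 0.05, beside 4.71% of all genes tested. The median log2 fold change was 0.28, with 8 estimates higher in males and 4 lower. The 1 gene was Cd83, a surface protein of activated immune cells, with 37.9, 57.8, 33.0 and 33.5 CPM in males, against 76.8, 70.5 and 79.2 CPM in females. Every male lay below every female, as in 2.78% of all genes tested, at 40.6 ± 11.7 CPM in males (SD, n = 4), against 75.5 ± 4.47 CPM in females (SD, n = 3). Whether the levels of neuron markers such as Slc17a7 and Slc32a1 bear on Cd83 was not tested. The log2 fold change of -0.90 ± 0.21 had an adjusted p of 0.509 in edgeR's test over all genes. The sum over the list, in which Cd83 and Nfkbia carried most, was 117, 118, 104 and 116 CPM in males, against 163, 139 and 168 CPM in females, the opposite direction to the median. The other genes of low p in this list were Icam1, an adhesion molecule, at 2.03 ± 1.02 CPM for males and 1.14 ± 0.255 CPM for females, and Nfkbia, an inhibitor of NF-kappa-B, at 48.0 ± 8.80 CPM for males and 59.2 ± 8.17 CPM for females.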

How the data were processed

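RNA from medial amygdala pieces of 4 male and 3 female mice was measured by bulk RNA-seq. The submitters' processing notes name the build GRCm39 and the tools TopHat2 2.2.1, DESeq2 1.26.0, HTSeq 2.0.1 and cutadapt; roles, strand setting and annotation release are not given in the sources used here. The authors deposited 1 table with raw counts per gene and library. It also holds, per the file headers, a normalized signal (counts divided by the authors' size factors) and a base mean. Log2 fold changes deposited by the authors run female over male, per the file headers. Their standard errors on the log2 scale, a test statistic (a score) and p-values stand beside them, as deposited.

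Genes were filtered by filterByExpr with sex as the group, a minimum count setting of 10 and a minimum total of 15. This does not require 10 counts in every library. Raw counts of genes that passed entered a robust quasi-likelihood test of edgeR 4.0.16 in R 4.3.3 after TMM scaling. The test was two-sided, with Benjamini-Hochberg adjustment over all 20420 genes at 0.05. DESeq2 1.42.0, limma-voom (limma 3.58.1), other scalings, no filter, leaving out each library, a replicate block and the male column names were alternatives. Intervals are 95%. Transcript lengths are those of the longest protein-coding transcript in GENCODE M21. Libraries differed from each other by a chi-square over degrees of freedom of at least 35.4, so none was treated as a duplicate. The scripts were tested on simulated counts.

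The members and lists were chosen with earlier results of these data known. Values per library are given for the 5 members of lowest p in each direction, the member of lowest p in each role and 10 members taken in any case (Csf1r, Spi1, Cx3cr1, P2ry12, Tmem119, Trem2, Mrc1 and the C1q genes), and up to 3 genes of lowest p are named from each further list. Lyz2, Mpeg1, Tyrobp, Cd53 and Cd163 and genes named for their role, such as Il34, were added after their values were seen.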

Additional observations from a re-analysis of the deposited data

Results flagged for a closer look

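Within the 4 males, the C1qa level of male 4, 53.5 CPM, lay apart from the 43.8 to 45.1 CPM of the other 3. Its gap to the nearest male made up 0.862 of the whole range, above Dixon's 95% critical value for 4 samples. All 35 members were examined in this way in the males, and chance flags about 1 in 20 such groups. Female 3, at 52.6 CPM, stood near the same level.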

How the results depend on the processing

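The count of members called was 0 for sex and 0 for the DIMPLE slope under every alternative run. For sex, 0 genes of the further lists were called as well, of 109 tested in the main fit. Without the filter and in DESeq2 133 of them were tested. All 595 single-member values for sex and 490 for the slope stayed on the same side of the threshold. Over all genes, the fit called 5 and DESeq2 122. The member median log2 fold change, male over female, was -0.039 with the mv males alone, and 0.02 to 0.18 when single libraries were left out, lowest without female 1. The median slope was -0.276 to 0.0542 when single libraries were left out, lowest without male 2, where 7 of 35 slopes were positive. The causes were not tested. With the replicate number as a block, the median was 0.04 for sex and 0.16 for the slope, with 0 called. Same-numbered males and females correlated at 0.31, 0.17 and 0.03 in their deviations, and differently numbered ones at -0.46 to 0.30. Not every sample correlated best with its own number. So few correlations cannot decide whether same-numbered samples were processed together, which the labels do not say. Low counts limit the border macrophage genes, whose lowest count was 7, and 7 libraries limit the rest.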
